A study of Mus musculus with 6 samples.

Results

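In cultured mouse fibroblasts that differ at Rb1, 51 of 55419 transcript IDs were listed at 0 counts in all 3 libraries of one genotype and at 50 counts or more in each of the 3 libraries of the other. They were picked by those raw counts alone. Of the 51, 42 were at 0 in Rb1L/L and 9 were at 0 in Rb1+/+, and the sets are described apart. The difference between the genotypes is what selected these IDs, so its size is given below as a description and is not evidence for itself.

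The cells were MEFs, that is embryonic fibroblasts, the connective-tissue cells that grow out of dissociated E13.5 mouse embryos, and they were dividing at passage 4 when harvested. One genotype was wild type at Rb1 (Rb1+/+, 3 libraries). The other was homozygous for the allele called L (Rb1L/L, 3 libraries). No treatment is named for either genotype, and the labels do not state the strain, the sex, or whether each library came from an embryo of its own. A p-value here reflects how much these libraries vary, and that variation may be technical. RNA was total RNA after removal of ribosomal RNA.

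Rb1 encodes the retinoblastoma protein pRb, which binds E2F transcription factors and holds back genes needed for DNA replication. pRb also recruits chromatin proteins through a cleft that recognises an LXCXE peptide, and the L allele is known for disrupting that cleft. Condensin II, named in the title of the study, is a ring-shaped complex that folds chromosomes and is among the partners of pRb. The genotype comparison asks which RNAs depend on this part of pRb. Each row of the table is an ID for 1 transcript, and a gene with alternative promoters or splicing can have several IDs. A 0 for one ID is thus a statement about that transcript as counted, not about its gene.

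The deposited table does not pair IDs with gene names, and a search of the gene tables in hand found 0 of its 55419 IDs. No gene, position or sequence can therefore be given for a member, and the identity of the cells could not be checked against fibroblast markers. At most 2 members per direction are named by ID, chosen as those with the highest lowest count in the genotype that had counts. Library totals ran from 14325677 to 20525072 counts. Each Rb1L/L library (at most 16432237 counts) was shallower than each Rb1+/+ library (at least 17674522 counts). Depth and genotype thus run together across the 6 libraries.

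The 42 IDs at 0 in Rb1L/L covered a wide range of levels in wild-type cells. The lowest of the 3 Rb1+/+ counts was under 100 in 22 of them, at least 100 but under 200 in 8, at least 200 but under 500 in 7, and 500 or more in 5. The median lowest count was 92.5. On the scale of CPM (counts scaled to the library size after TMM adjustment), their mean Rb1+/+ level ran from 3.24 to 101 CPM with a median of 8.34 CPM. The other IDs with at least 50 counts in each Rb1+/+ library had a median level of 20.9 CPM. Summed over the 42 members, Rb1+/+ replicates 1, 2 and 3 had 12803, 12862 and 11211 counts. Those sums were close to a constant share of each library, and they were 0 in each Rb1L/L library.

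uc007mxx.1 was the most abundant member. Rb1+/+ replicates 1, 2 and 3 had 1537, 1673 and 2296 counts of it, with 0 counts in each Rb1L/L library. The level in Rb1+/+ was 101 ± 34.1 CPM (SD, n = 3), with the highest value in replicate 3. Across the 3 Rb1L/L libraries together, an observed 0 allows up to 3 counts, or 0.0620 CPM for counting error only. Against that limit uc007mxx.1 was at least 1595-fold higher in Rb1+/+.

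uc009sgu.2 followed, and Rb1+/+ replicates 1, 2 and 3 had 1138, 991 and 1051 counts of it, with 0 counts in each Rb1L/L library. Its Rb1+/+ level of 57.5 ± 6.36 CPM (SD, n = 3) varied far less between replicates than that of uc007mxx.1. Against the same limit of 3 counts it was at least 921-fold higher in Rb1+/+. The third member in this order had Rb1+/+ counts of 792, 881 and 798 in the same replicate order, a level of 44.7 ± 4.72 CPM (SD, n = 3). At the other end, the last member had 67, 50 and 62 counts in the same 3 libraries. Over all 42 the lower bound of the fold ran from 51.9 to 1595, with a median of 131.

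The 9 IDs at 0 in Rb1+/+ included none at the level of the most abundant members of the opposite set. Their lowest Rb1L/L count was under 100 in 3 IDs, at least 100 but under 200 in 5 and at least 200 in 1, with a median of 112. Mean Rb1L/L levels ran from 3.70 to 41.2 CPM, with a median of 10.8 CPM. The other IDs with at least 50 counts in each Rb1L/L library had a median level of 23.1 CPM. The 9 members summed to 1843, 2231 and 2096 counts in Rb1L/L replicates 1, 2 and 3. These sums came to 0.0112%, 0.0140% and 0.0146% of the 3 libraries, against 0.0624%, 0.0638% and 0.0634% of Rb1+/+ replicates 1, 2 and 3 for the 42 IDs of the opposite set.

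uc008ovl.2 led the IDs at 0 in Rb1+/+. It had 705, 398 and 865 counts in Rb1L/L replicates 1, 2 and 3 and 0 counts in each Rb1+/+ library. Its level in Rb1L/L was 41.2 ± 16.1 CPM (SD, n = 3), lowest in replicate 2. The observed 0 allows up to 3 counts over the deeper Rb1+/+ libraries, or 0.0539 CPM for counting error only. Against that limit, which leaves out the spread of replicates, uc008ovl.2 was at least 755-fold higher in Rb1L/L.

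uc009bdc.1 had 278, 192 and 286 counts in Rb1L/L replicates 1, 2 and 3 and 0 counts in each Rb1+/+ library. Its Rb1L/L level was 15.8 ± 3.89 CPM (SD, n = 3), at least 290-fold above the limit for Rb1+/+. For the 9 IDs the lower bound of the fold ran from 68.7 to 755, with a median of 206. The 2 IDs with the largest summed counts, uc008ovl.2 and a member not named here, held 47.4% of the counts of this set. In the set of 42, uc007mxx.1 and uc009sgu.2 had the largest sums and held 23.6%.

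**Figure D1:**
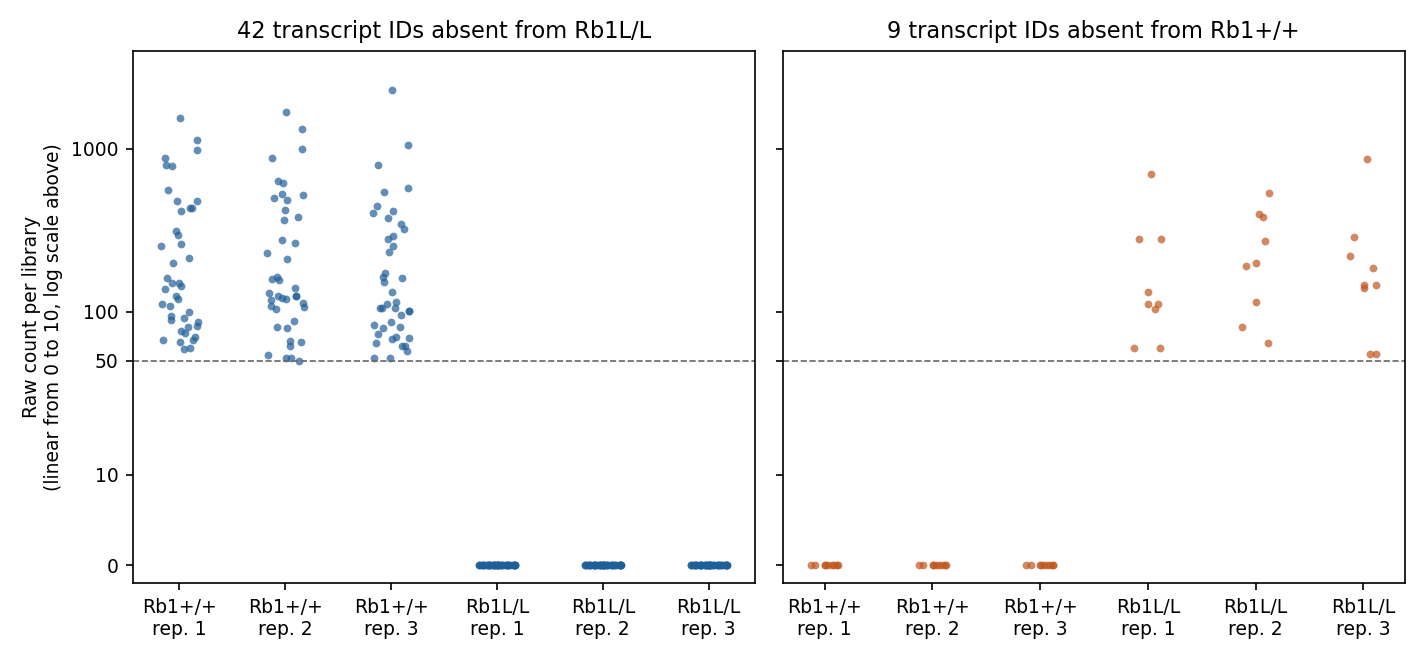
Raw counts of every member in every library, with 1 point per ID; the left panel holds the 42 IDs at 0 in Rb1L/L and the right panel the 9 IDs at 0 in Rb1+/+, on an axis that is linear up to 10 and logarithmic above. The dashed line marks the minimum of 50 counts that the selection required, and the gap between it and 0 was set by that selection. The highest count is 2296 on the left and 865 on the right.

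Members differed in how steady they were within the genotype that had counts, which the selection restricts only from below. Among the 42, the highest of the 3 Rb1+/+ CPM values was less than 1.5 times the lowest in 16 IDs, less than 2 times in 27, and more than 3 times in 8. The steadiest member had 70, 65 and 57 counts, a coefficient of variation (CV) of 1.80%. The most uneven by this ratio had 883, 118 and 448 counts, a 7.18-fold range of CPM. The median CV was 30.6%, against 18.1% for the other IDs with at least 50 counts in each Rb1+/+ library. Those other IDs were also more abundant, and the part of abundance in this gap was not tested.

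By CPM, replicate 3 was the highest Rb1+/+ library in 23 of the 42 IDs, replicate 2 in 10 and replicate 1 in 9. Other IDs were not ranked in this way, so this cannot be called a trait of the members. Of the 9 IDs with counts only in Rb1L/L, 2 stayed under a 1.5-fold range of CPM and 3 exceeded a 3-fold range. Their median CV was 37.6%, against 20.03% for other IDs with at least 50 counts in each Rb1L/L library. Over the 9 IDs the CV ran from 5.22% to 92.85%. The other IDs were again more abundant (median 23.1 against 10.8 CPM), and the part of abundance was not tested. Among the 9, the widest range was 6.38-fold, from 104, 379 and 55 counts in replicates 1, 2 and 3.

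IDs lay close to the limit of 50 on either side. On the Rb1L/L-absent side, the member closest to the limit had counts of 67, 50 and 62 in Rb1+/+, and the ID just outside had 107, 48 and 56. Between 50 and 59 there were 8 members by lowest count, and between 40 and 49 there were 6 IDs outside. On the Rb1+/+-absent side the member closest to the limit had 60, 64 and 55 counts in Rb1L/L replicates 1, 2 and 3. The nearest ID outside it had 75, 43 and 41. One further ID per direction had at least 50 counts in each library of one genotype and a single count, 1 in all, in the other.

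Members were a small part of the IDs that could have qualified. Of 12856 IDs with at least 50 counts in each Rb1+/+ library, 42 (0.327%) were at 0 in all 3 Rb1L/L libraries, 147 were at 0 in 2 of them and 492 in 1. Zeros were unevenly spread over the 3: 219 of the 12856 were at 0 in Rb1L/L replicate 1, 360 in replicate 2 and 333 in replicate 3. In the other direction, 11790 IDs had at least 50 counts in each Rb1L/L library. Of these, 9 (0.0763%) were at 0 in all Rb1+/+ libraries, 47 in 2 of them and 156 in 1. Per library the zeros were 90 in Rb1+/+ replicate 1, 71 in replicate 2 and 116 in replicate 3. Some IDs had low totals above 0. Of the 12856 IDs, 2 had 1 to 3 counts in all in Rb1L/L, 5 had 4 to 10 and 29 had 11 to 30. The corresponding numbers among the 11790 were 5, 1 and 5.

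The same selection was applied to the other 9 ways to set 3 libraries against 3, which mix the genotypes. The genotype split gave 42 and 9 IDs, 51 in all. The other 9 splits gave 16 to 40 IDs in all (median 22), and their 18 directions gave 6 to 32 IDs (median 9). The 42 IDs at 0 in Rb1L/L were thus the highest of the 20 directions. The 9 IDs at 0 in Rb1+/+ were in the middle: 8 of the 18 mixed directions gave more, and 3 gave exactly 9.

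The next highest directions shared libraries with the Rb1L/L-absent set. The 32 IDs were at 0 in Rb1+/+ replicate 3 and Rb1L/L replicates 2 and 3, the 23 IDs at 0 in Rb1+/+ replicate 3 and Rb1L/L replicates 1 and 2, and the 22 IDs at 0 in Rb1+/+ replicate 3 and Rb1L/L replicates 1 and 3. All 3 have counts in Rb1+/+ replicates 1 and 2, the deepest libraries (20525072 and 20158591 counts). The part of depth in these numbers was not tested over the splits. With counts first scaled down to the shallowest library, the genotype split gave 31 IDs at 0 in Rb1L/L, against 42 unscaled. It gave 9 at 0 in Rb1+/+, as without scaling. The mixed splits were not scaled, so the rank of the genotype split at equal depth is not known.

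With minimums of 500 and 100 counts the direction at 0 in Rb1L/L was again the most numerous of the 20. With at least 500 counts in each of 3 libraries, 5 IDs were at 0 in Rb1L/L and 0 to 2 IDs in each of the 18 mixed directions, while 0 were at 0 in Rb1+/+. With at least 100 counts, 20 IDs were at 0 in Rb1L/L and 6 at 0 in Rb1+/+, against 2 to 17 in the mixed directions. These numbers describe the 6 libraries and carry no p-value.

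**Figure D2:**
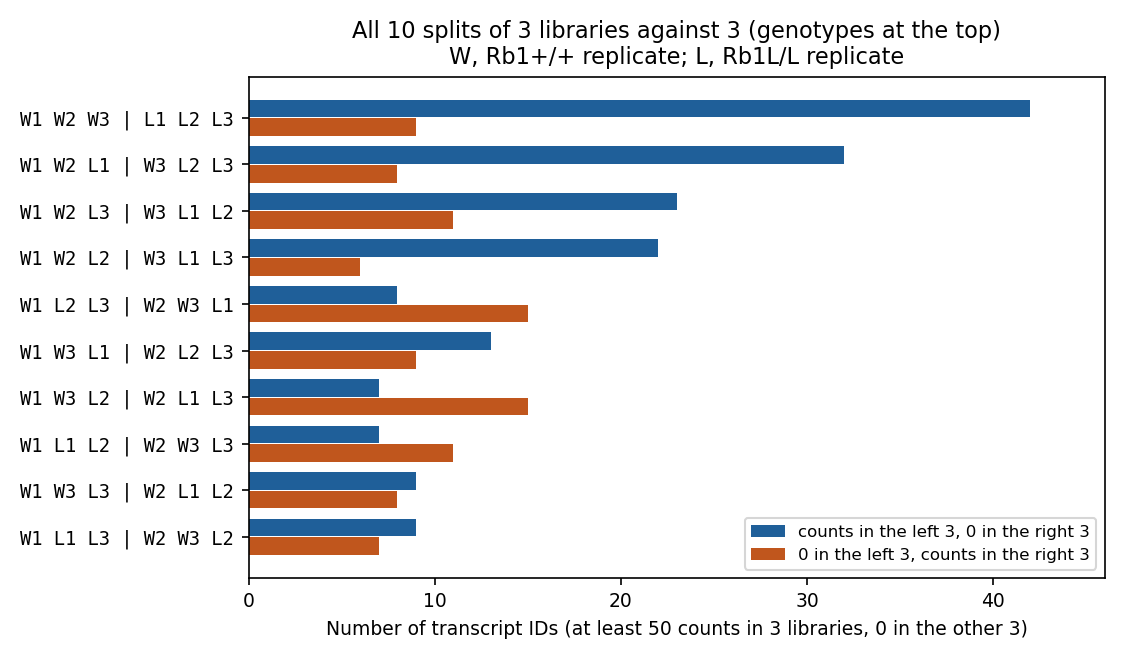
Number of IDs with at least 50 counts in each of 3 libraries and 0 in the other 3, for all 10 splits, with the genotype split as the top pair of bars; W and L stand for Rb1+/+ and Rb1L/L replicates. The 42 IDs of the top blue bar exceed the 32, 23 and 22 of the next bars, all with counts in W1 and W2, while the 9 of the top orange bar lie among the mixed splits.

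A jump from 50 counts or more to exactly 0 also occurred outside splits of 3 against 3. Over all 62 patterns in which some libraries were at 0 and all remaining ones at 50 counts or more, 1802 IDs were found, and the 51 members made up 2.83% of them. A 0 in 1 library only, with 50 or more in the other 5, was seen in 502 IDs: 160 for Rb1L/L replicate 3, 160 for Rb1L/L replicate 2, 61 each for Rb1L/L replicate 1 and Rb1+/+ replicate 3, 31 for Rb1+/+ replicate 1 and 29 for Rb1+/+ replicate 2. A 0 in 2 libraries was seen in 296 IDs over 15 patterns, in 3 libraries in 271 IDs over 20 patterns, and in 4 libraries in 280 IDs over 15 patterns. A further 453 IDs had 50 or more counts in 1 library and 0 in the other 5. For comparison, 10919 IDs had 50 counts or more in all 6. Within 1 genotype, replicates therefore switched between 0 and 50 or more for many more IDs than the members.

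**Figure D3:**
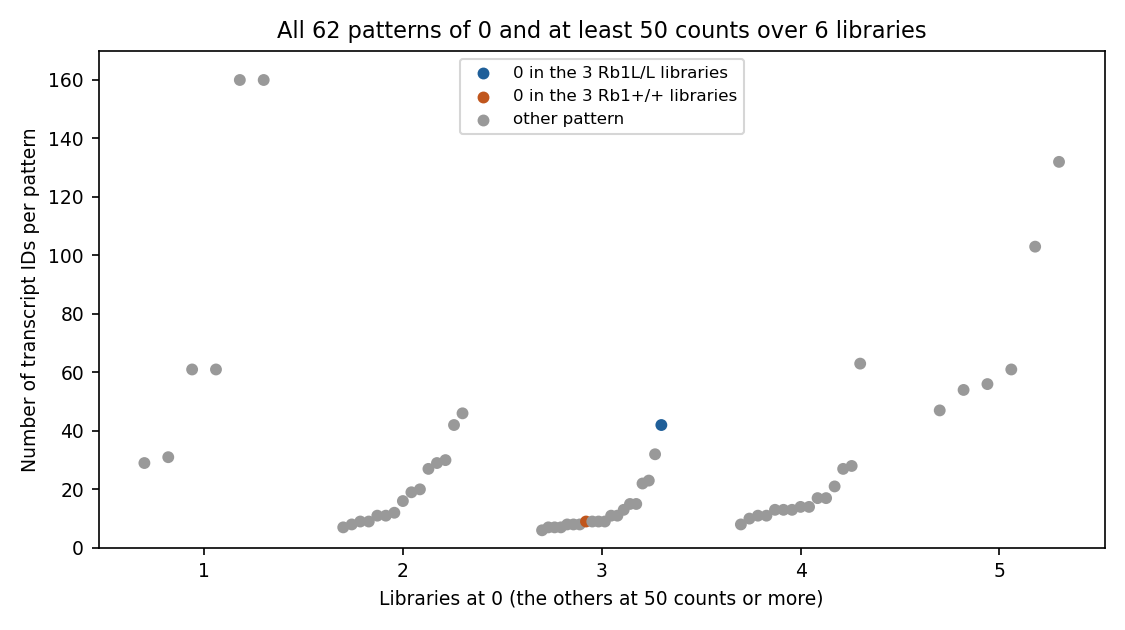
Number of IDs for each of the 62 patterns of 0 and at least 50 counts, 1 point per pattern, placed by how many libraries are at 0 and ordered within each column. The blue point (42 IDs, 0 in Rb1L/L) is the highest of the 20 patterns with 3 libraries at 0, the orange point (9 IDs, 0 in Rb1+/+) lies in that column's middle, and columns for 1 and 5 libraries reach 160 and 132.

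No member passed the genome-wide test. With the edgeR quasi-likelihood test over 22085 IDs and Benjamini-Hochberg adjustment, 0 of the 42 IDs and 0 of the 9 IDs had an adjusted p under 0.05. The test called 2 of all IDs (0.00906%) as lower in Rb1L/L, neither a member, and 0 (0.0%) as higher. The adjusted p of members ran from 0.0508, for uc009sgu.2, to 0.259 in the set of 42, and from 0.109 to 0.292 in the set of 9. It was 0.0882 for uc007mxx.1, 0.109 for uc008ovl.2 and 0.109 for uc009bdc.1 (edgeR).

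At an unadjusted p under 0.05 (edgeR), all 42 and all 9 were reached, against 4.26% of all IDs lower and 4.09% higher in Rb1L/L. Since this contrast selected the members, nothing is read from these shares. limma-voom called 0 members and 0.0% of all IDs at an adjusted p under 0.05, with 37 of the 42 and 8 of the 9 at an unadjusted p under 0.05, against 5.24% of all IDs lower and 4.4% higher in Rb1L/L. DESeq2 called all 42 and all 9, against 2.0% of all IDs lower and 1.83% higher in Rb1L/L. The call on a member thus depended on the tool. All 51 passed the filter on low counts, each through the genotype in which it had counts.

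The IDs carry a serial order, and the IDs directly before and after each member were in the table for all 51. No member was directly adjacent to another, and 2 pairs of members lay within 5 places. The files do not say whether adjacent IDs belong to 1 gene. None of the 51 had the same counts in all 6 libraries as another ID. A version suffix of 2 was carried by 31.4% of the members and by 32.6% of all IDs tested.

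Next to the 42 IDs at 0 in Rb1L/L, 53 of 84 adjacent IDs were abundant enough to be tested. An ID could pass that filter through 1 genotype alone, and some of these neighbours did so through Rb1L/L. Of those 53, 17 (32.1%) had higher CPM in every Rb1L/L library than in any Rb1+/+ library, opposite to the member, where 7.77% of all IDs tested did so. A further 5 (9.43%) were ordered like the member, where 9.83% of all IDs were, and 31 overlapped. For the 9 IDs at 0 in Rb1+/+, 9 of 18 adjacent IDs were tested. Of these, 3 were ordered opposite to the member without overlap (lower in Rb1L/L, as were 9.83% of all IDs). Another 1 was ordered like the member (higher in Rb1L/L, as were 7.77%) and 5 overlapped. The shares are descriptions of neighbours that may share reads with the members, and no test was made of them.

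For uc007mxx.1, the ID before it had 2, 0 and 1 counts across the Rb1+/+ replicates and 1795, 736 and 819 across those of Rb1L/L. The ID after it overlapped between genotypes. Summed over the 3 IDs, the Rb1+/+ level was 159 ± 30.3 CPM and the Rb1L/L level 162 ± 16.4 CPM (SD, n = 3 per genotype), so the means lay closer than the replicates.

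For uc009sgu.2 the ID after it was also ordered the opposite way, with 43, 39 and 14 counts in Rb1+/+ and 128, 115 and 125 in Rb1L/L. Those counts were small beside the member. With both adjacent IDs added, Rb1+/+ had 60.4 ± 5.74 CPM and Rb1L/L 8.26 ± 0.848 CPM (SD, n = 3 per genotype), a ratio of 7.32 with no overlap.

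uc008ovl.2 had no abundant neighbour. The ID before it had 6, 7 and 12 counts in Rb1+/+ and 10, 6 and 10 in Rb1L/L, and the ID after it was at 0 in all 6 libraries. With both added, Rb1+/+ had 0.465 ± 0.234 CPM and Rb1L/L 41.7 ± 16.3 CPM (SD, n = 3 per genotype), a ratio of 89.6. For uc009bdc.1 the ID before it had 75, 115 and 74 counts in Rb1+/+ and 0, 15 and 4 in Rb1L/L. The sums were 7.45 ± 1.20 CPM for Rb1+/+ and 18.4 ± 3.45 CPM for Rb1L/L (SD, n = 3 per genotype), a ratio of 2.47 without overlap.

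Over the whole set of 42, adding both adjacent IDs left 20 sums higher in every Rb1+/+ library than in any Rb1L/L library, where 12.1% of all IDs tested had such a sum. Each sum contains a member chosen for this contrast, so nothing is read from that count. The same addition left 21 sums that overlapped and 1 that was higher in every Rb1L/L library, as were 8.35% of the sums over all IDs. In 2 cases the sum was still at 0 in Rb1L/L. For the other 40 the median ratio of Rb1+/+ to Rb1L/L was 1.29: 29 ratios were under 2, of which 10 were under 1, and 3 were above 8. Members made up from 9.14% to all of their sum in Rb1+/+, with a median of 51.5%, so some sums mostly reflect the neighbours.

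Over the 9 IDs at 0 in Rb1+/+, 5 sums were higher in every Rb1L/L library (8.35% over all IDs), 3 overlapped and 1 was higher in every Rb1+/+ library (12.1% over all IDs). These sums, too, contain the selected members. Of the 9 sums, 1 stayed at 0 in Rb1+/+. For the other 8 the median ratio of Rb1L/L to Rb1+/+ was 2.77, with 3 ratios under 2 and 2 above 8. Of all 51 members, 20 had an adjacent ID ordered the opposite way without overlap, and 9 had both adjacent IDs untested. The matching share over all IDs was not computed, so nothing is read from this count. Whether counts moved between adjacent IDs, transcripts were replaced by neighbours, or members changed alone was not tested. These counts cannot tell them apart.

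**Figure D4:**
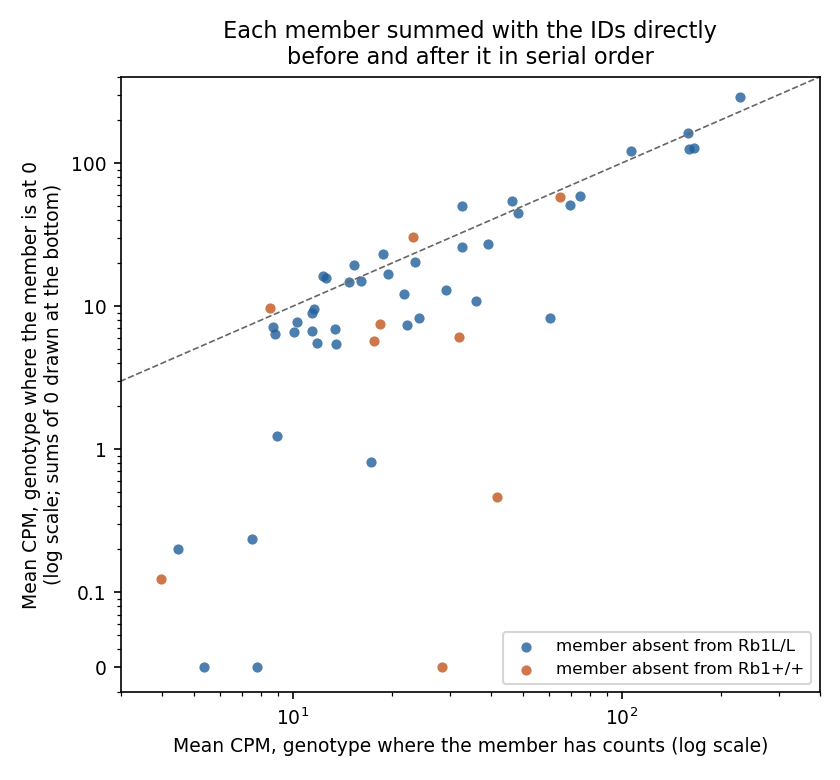
Mean CPM of each member summed with the IDs directly before and after it, in the genotype where the member has counts (horizontal) and in the one where it is at 0 (vertical), both on log scales with sums of 0 drawn at the bottom edge. The dashed line marks equal levels. Of the 51 points, 12 lie above the line (a ratio under 1), 20 have a ratio from 1 to 2, 16 a higher ratio, and 3 sums stay at 0.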

How the data were processed

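Total RNA of 6 MEF libraries (3 per genotype) was sequenced after rRNA depletion. The authors deposited whole-number counts per UCSC-style transcript ID, not normalized. The submitters' processing notes name STAR 2.5.0a, StringTie 1.3.2, DESeq2 and the build mm9 without roles. How reads were counted, the strand setting and any filter were not given in the sources used here. Transcripts that overlap or nearly match have uncertain values, and counts need not be independent molecules. The table held 0 columns of other samples.

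Groups came from the sample titles. Members were IDs at 0 in 3 libraries and at 50 or more in the others, on raw counts. The members and lists were chosen with earlier results of these data known. The lists of marker and pathway genes could not be used, since 0 IDs matched a name. The naming rule ranked members by lowest count in the genotype with counts and took the first 2 per direction; other members appear by counts only.

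edgeR 4.0.16 in R 4.3.3 fitted all 6 libraries: filterByExpr (22085 IDs left, 12235 others with a count set aside), TMM scaling, quasi-likelihood F test, 2-sided, genotype as the only term, Benjamini-Hochberg over all IDs tested, threshold 0.05. CPM used TMM-adjusted library sizes. Lower bounds of folds set an all-0 genotype to 3 counts over its 3 libraries and compare summed counts per summed library size; they cover counting error only. Alternatives were DESeq2 1.42.0 (independent filtering set to 0.05), limma-voom (limma 3.58.1), other scalings, no filter, a replicate block, other limits and leaving out each library. The fits were tested on simulated data in which no ID was made absent from a genotype. That run therefore does not cover IDs like the members.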

Additional observations from a re-analysis of the deposited data

How the results depend on the processing

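For the 42 IDs at 0 in Rb1L/L, a minimum of 100 gave 20 IDs. A minimum of 20 gave 61, a limit of 3 counts in each Rb1L/L library 45, scaling to the shallowest library 31, and counting identical rows once 42. For the 9 IDs at 0 in Rb1+/+, a minimum of 20 gave 15 and a limit of 3 counts in each Rb1+/+ library 15. A minimum of 100 gave 6, and scaling or counting identical rows once 9. Leaving out 1 library loosens the selection by construction. It gave 70, 76 and 115 IDs at 0 in Rb1L/L without Rb1+/+ replicates 1, 2 and 3, and 96, 81 and 96 without Rb1L/L replicates 1, 2 and 3. At 0 in Rb1+/+ it gave 19, 32 and 23 without Rb1+/+ replicates 1, 2 and 3, and 23, 21 and 19 without Rb1L/L replicates 1, 2 and 3. More IDs were at 0 in Rb1L/L than in Rb1+/+ under each of these settings.

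The number of members called was 0 with edgeR and 51 with DESeq2. It was also 0 with RLE scaling, library size only, no filter, limma-voom, and without each library in turn. Members' adjusted p ranged from 0.05004 to 0.704 over the edgeR fits, and all 51 had an unadjusted p under 0.05 in each edgeR fit, against 5.01% to 9.85% of all IDs. The contrast selected the members, so nothing is read from this. Over all IDs, edgeR called 2, against 1 with library size only, 804 with DESeq2, 0 with limma-voom, 0 with no filter, and 0 to 2 without 1 library. The cause was not tested. A replicate block gave 0 calls among members and 0 among all IDs (adjusted p = 0.693 for each member, edgeR). The replicate numbers were not taken as pairs: deviations of same-numbered libraries correlated across IDs at 0.013, -0.028 and 0.0011, so same-numbered libraries did not all deviate together.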
